A study of Bos taurus with 138 samples.

Results

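The genes described here are 100 transcripts that were present in whole bovine 8-cell embryos and nearly missing from the polysome fractions of the same stage. They were chosen among 16706 genes by their level in cpm, the count divided by the total of its library and scaled to 1000000. The 3 polysome fractions of each 8-cell gradient were summed, the 4643 genes under 0.5 cpm in both pools were kept, and the 100 of these with the highest median over the 3 whole-embryo transcriptomes were taken. All 100 matched a protein-coding gene of the RefSeq annotation. Levels in the 8-cell polysome pools and 8-cell transcriptomes chose the members, so these levels are given as a description and were not tested. The samples that the choice did not use are the earlier gradient fractions of the 8-cell stage and all libraries of the other 5 stages.

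The study separated lysates of bovine oocytes and embryos on sucrose gradients into 10 fractions, F1 to F10, and sequenced each fraction. GV and MII oocytes and 2-cell, 8-cell, morula and blastocyst embryos were used, with 2 gradients (A and B) and 3 transcriptomes (A, B and C) per stage, 138 libraries in all. Oocytes came from slaughterhouse ovaries, MII oocytes were matured in vitro, and embryos were made by in vitro fertilization with semen of a single Holstein bull. Before collection, oocytes and embryos were kept for 10 min in culture with cycloheximide, which holds ribosomes on messenger RNA. It was also in the lysis buffer and the sucrose of the gradients. Each library is made from a pool of oocytes or embryos. The p-values below measure the spread between these pools. The study counts F1 and F2 as free RNA, F3 to F5 as monosome-bound, F6 and F7 as intermediate and F8 to F10 as polysome-bound. Fraction libraries held between 1229382 and 17342859 counts, and transcriptomes between 3269386 and 11812567.

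A messenger RNA that is being translated heavily carries several ribosomes and sediments deep in such a gradient, whereas free RNA stays near the top. Oocytes store many messenger RNAs that are not translated until maturation or later. In cattle the embryonic genome becomes broadly active around the 8-cell stage, so an 8-cell embryo holds both leftover maternal transcripts and newly made ones. A level in cpm is a share of a library and not a number of molecules, so a low level in a fraction cannot be told apart from a high level of other transcripts there. Fewer cells of a type and less RNA per cell cannot be told apart either. Levels also depend on transcript length, and no order between genes is drawn from them beyond the rule itself.

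The libraries behind the rule were unequal. The 8-cell polysome pool of gradient A held 22543737 counts and detected 9247 genes at 1 cpm or more, against 34662218 counts and 11018 genes in gradient B. Of the 5648 genes whose 8-cell transcriptome median reached that of the last member, 717 were under the limit in gradient A, 159 in gradient B and 100 in both. Of these genes, 590 were under the limit in A and at 1 cpm or more in B. A list made from gradient B alone kept 56 of the 100 members, and a list made from gradient A alone kept 4. The 8-cell transcriptome A also stood apart. Its mesenchymal markers, 22 genes with collagens and smooth muscle genes among them, summed to 18443 cpm against 3425 and 3362 in B and C. Its cumulus and granulosa markers summed to 1370 cpm against 285 and 366. None of the markers of these or 9 other lists of cell types and stages is a member, and the part of this RNA in the results was not tested. Transcriptome A was above B and C in 57 of the 100 members and in 1977 of the 5648 genes. It was over 2 times the higher of B and C in 15 members, a count not made for the 5648 genes. The list without transcriptome A kept 91 members. The oocyte markers, among them the egg-coat genes ZP2, ZP3 and ZP4, summed to between 1022 and 2162 cpm in the 8-cell transcriptomes.

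The members' 8-cell transcriptome medians ran from 138 cpm for RANBP6 to 18.5 cpm for PARP8 and C20H5orf22. RBAK and FAM76B came next in the order and were not taken, at 18.4 and 18.2 cpm. STAM and DST were just under the polysome limit, each with 0 cpm in pool A and 0.490 cpm in pool B. MFN1, at 0 and 0.519 cpm, and LTA4H, at 0.532 and 0.0865 cpm, were just above it. Together the members took 4735, 3103 and 3518 cpm of transcriptomes A, B and C and 3.86 and 10.7 cpm of the polysome pools. No count was found in either pool for 41 members, and 0 counts allow up to 0.133 cpm in pool A and 0.0865 cpm in pool B, for counting error only. Of the genes at this transcriptome level, 1.77% were under the polysome limit at the 8-cell stage. The same criteria applied to the other stages found 3 of 5586 genes in GV oocytes, 8 of 4883 in MII oocytes, 7 of 5617 in 2-cell embryos, 23 of 5394 in morulae and 8 of 5430 in blastocysts.

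The question asked first was whether the members lay in the earlier fractions of the same gradients. They were seen in part, and unevenly. The members together took between 104 and 832 cpm of the 14 libraries of F1 to F7, and the median member was at 0 in every one of them. The share was largest in F1, with 765 cpm in gradient A and 832 cpm in gradient B. There the top 3 genes of each library made 58.5% and 60.9% of the sum, led by LANCL2 in A and MYOF in B. In F2 it was 361 and 273 cpm, in F3 104 and 314 cpm, in F4 163 and 209 cpm and in F5 110 and 239 cpm. The intermediate fractions held 146 and 187 cpm in F6 and 171 and 245 cpm in F7. All these sums lay below the lowest of the transcriptomes.

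**Figure D1:**
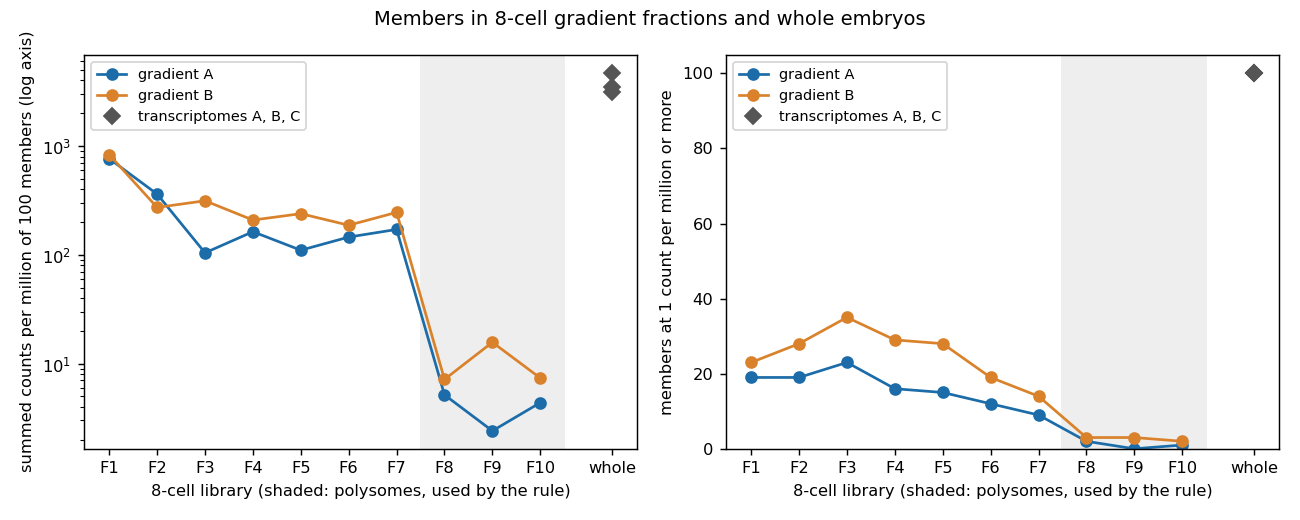
Left, summed cpm of the 100 members (log axis) in each 8-cell fraction of gradients A and B and in the 3 transcriptomes. Right, the number of members at 1 cpm or more in each library. The sum lies between 104 and 832 in F1 to F7 and between 3103 and 4735 in whole embryos, and no fraction shows more than 35 members. F8 to F10 are shaded because they chose the members.

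With detection set at 1 cpm, 32 members were seen in both gradients of at least 1 fraction. Of the 3985 other genes between the lowest and the highest member in the 8-cell transcriptome, 86.7% were, and their median level was 45.7 cpm against 27.8 cpm for the members. Another 22 members were seen in both gradients but in different fractions, 20 in gradient B only, 6 in gradient A only and 20 in no library. The number seen in both gradients was 6 in F1, 10 in F2, 15 in F3, 6 in F4, 5 in F5, 3 in F6 and 0 in F7. PCNX1 and MARK1 were seen in 9 of the 14 libraries and LATS1, a kinase of the Hippo pathway, in 8.

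Much of the signal of a member came from 1 library. Of the 1400 values of members in F1 to F7, 937 were at 0, or 66.9%, against 19.9% for those 3985 genes. The 88 members with any count had a median of 65.2% of their F1 to F7 sum in 1 library, against 26.8% for the 3985 genes. That library was F1 or F2 for 39 members, F3 to F5 for 33 and F6 or F7 for 16, and it belonged to gradient B for 53 and to gradient A for 35. In 27 members the level in some fraction exceeded the transcriptome median.

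The 5 members with the highest mean over F1 to F7 show this. METTL14, a subunit of the enzyme that methylates adenosines in messenger RNA, had 185 cpm in F1 of gradient A and 0 in F1 of gradient B, with 35.4 cpm in F7 of A and 23.8 cpm in F6 of A. MYOF, a membrane repair protein of the ferlin family, had 232 cpm in F1 of gradient B, 0 in F1 of gradient A and at most 2.72 cpm elsewhere. LANCL2, a LanC-like protein, had 194 cpm in F1 of gradient A and 0.132 cpm in F1 of gradient B, and its next highest level was 20 cpm in F6 of B. The 2 gradients therefore differed in F1 by far more than the level of any of these 3 genes elsewhere. MARK1, a kinase of microtubule-associated proteins, had 141 cpm in F1 of B and 7.57 cpm in F1 of A, and 24.5 and 14.9 cpm in F2. TARS1, which charges threonine onto its transfer RNA, had 134 cpm in F1 of B and 0 in F1 of A. It also had 23.5 cpm in F2, 15.3 cpm in F4 and 16.6 cpm in F6 of B, and 8.22 and 5.54 cpm in F3 of B and A.

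The members with the highest transcriptome medians behaved in different ways. RANBP6, a relative of the importins that carry proteins into the nucleus, had 155, 138 and 115 cpm in the transcriptomes and 11.5 cpm in F2 of gradient B, with 0 in the other 13 libraries of F1 to F7. COMMD10, a protein of endosomal sorting, had 96.5, 64.5 and 66.2 cpm in the transcriptomes and was likewise found in F2 of gradient B alone, at 7.38 cpm. Both were thus nearly missing from all fractions and not only from the polysomes. FAF2, which takes part in protein degradation at the endoplasmic reticulum, had 106, 103 and 114 cpm in the transcriptomes. Its fraction levels reached 10.3, 11.4 and 7.26 cpm in F3, F4 and F5 of gradient B and 2.08 cpm in F6 of A. CEP70, a centrosomal protein, had 69.8, 89.1 and 105 cpm in the transcriptomes and was spread over both gradients, with 32.4 cpm in F7 of B, 19.7 cpm in F5 of A and 10.5 cpm in F2 of A. JAK2, a cytokine receptor kinase, had 31.1, 47.6 and 46.5 cpm in the transcriptomes, and 10.9 and 21.1 cpm in F2 of A and B. FAF2, CEP70 and JAK2 were therefore found in fractions of both gradients.

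**Figure D2:**
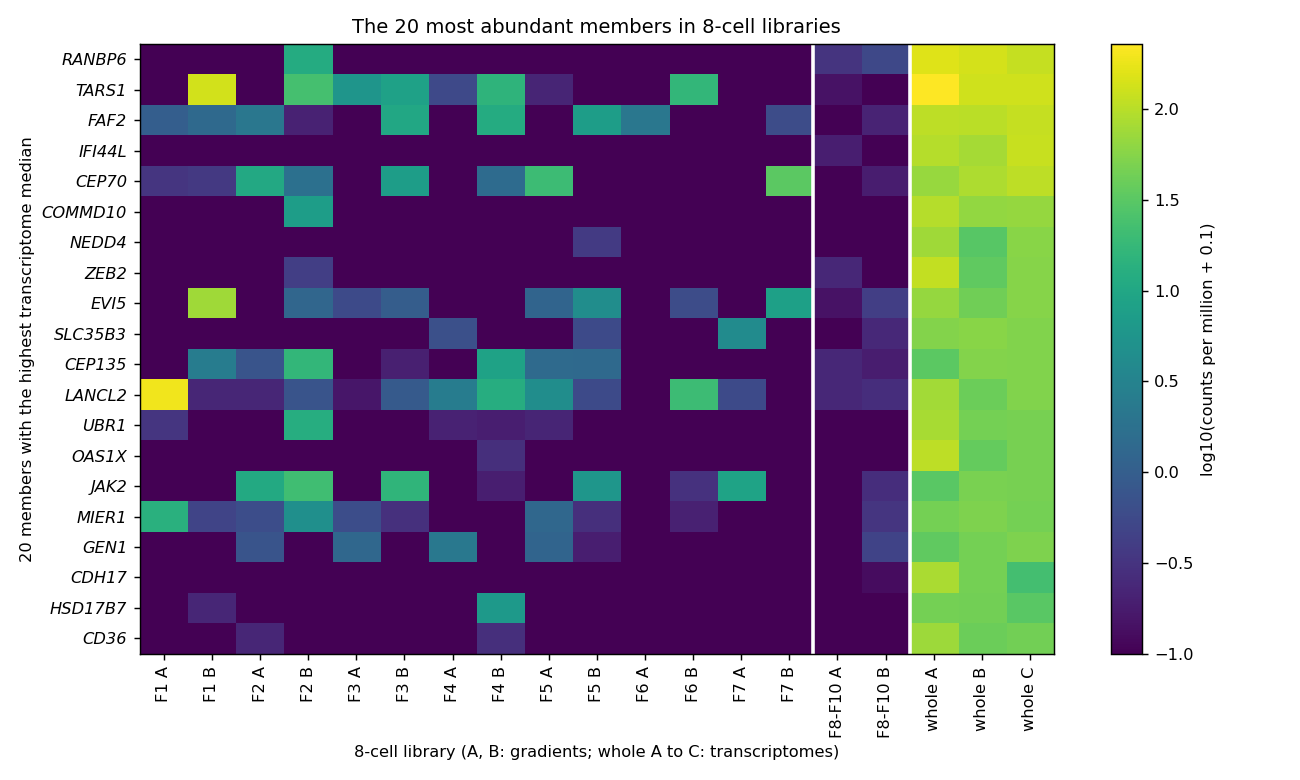
Level of the 20 members with the highest 8-cell transcriptome median, as log10 of cpm plus 0.1, in each fraction F1 to F7 of gradients A and B, in the polysome pools and in the 3 transcriptomes. Most cells of F1 to F7 are at 0, and TARS1 with 134 cpm and LANCL2 with 194 stand out in 1 F1 library each.

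Whether the members sat more in free RNA or in monosomes was tested on summed fractions with edgeR's quasi-likelihood test, with Benjamini-Hochberg adjustment over all 14813 genes in the fit and a fold change above 2. The fit held the pools of all 6 stages, and 97 members passed its filter on low counts. IFI44L, KCNIP4 and IFIH1 did not. No member was higher in free RNA, against 0.054% of all genes, and 1 was lower, against 0.473%. It was PRKCI, an atypical protein kinase C of cell polarity, at 0 and 0 cpm in F1 plus F2 and 9.41 and 1.29 cpm in F3 to F5 of gradients A and B. The groups do not overlap, the monosome level was at least 51.6-fold higher (3 counts over the group as the floor), and the adjusted p was 0.0335. With the gradient as a replicate block PRKCI was not called (adjusted p 0.0549) and 1 other member was higher in free RNA, against 0.581% of all genes called lower and 0.149% called higher with the block. Without gradient A no member was lower. At an unadjusted p under 0.05 there were 23 members, against 17.2% of all genes, and DESeq2 called 8 higher and 9 lower, against 4.1% and 6.56%. The median log2 difference was 0 for the members and 0 for all genes. Leaving out 16 members with 3 counts or fewer on both sides, and setting those at 0 on 1 side to bounds, gave 0.68.

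F6 and F7 were compared with the monosome fractions in the same fit. No member was higher, against 0.304% of all genes, and 2 were lower, against 1.77%. They were PRKCI, at least 61.7-fold with an adjusted p of 0.0153 in the quasi-likelihood test, and EOGT, an enzyme that adds a sugar to extracellular proteins. EOGT was at 0 and 0 cpm in F6 plus F7 and at 3.18 and 9.89 cpm in F3 to F5, at least 75.4-fold lower with an adjusted p of 0.0493. Without gradient A neither was called, and without gradient B EOGT was not called while 2 members were higher. At an unadjusted p under 0.05 there were 22 members, against 19% of all genes, and DESeq2 called 3 higher and 13 lower, against 4.11% and 8.72%. The median log2 difference was -0.53 for the members and -0.23 for all genes. With bounds, and without 20 members at 3 counts or fewer on both sides, it was -0.93. With 2 gradients that differ this much in single genes, the members' place within F1 to F7 could not be assigned to 1 class of fraction.

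The members were then grouped by what their proteins are known to do. The groups were made with the list in view, so their counts are a description. Each gene was put in 1 group only. Membrane traffic held 14 members, among them the Golgi tether COG6, the endosomal protein STAM, the lipid-transfer protein VPS13D and the bovine gene of C9orf72, C8H9orf72. All 14 were seen in some library of F1 to F7 and 7 in both gradients of 1 fraction. Kinases and signalling also held 14 members, including JAK2, WEE1, LATS1, TGFBR1 and LRRK2, of which 13 were seen somewhere and 8 in both gradients of 1 fraction. The 4 genes of translation and mitochondrial expression, TARS1, MTERF1, DPH5 and MTIF2, were all seen, and 3 of them in both gradients of 1 fraction.

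Of 12 members of adhesion, matrix and cytoskeleton, 5 were in no library and 1 was in both gradients of 1 fraction. ACTC1, the cardiac actin, had 21.3, 20.7 and 6.93 cpm in the transcriptomes and 0 in all 14 libraries. FILIP1L had 118, 16.5 and 25.8 cpm and also 0 in all 14, with transcriptome A far above B and C. None of 6 members linked to ubiquitin and related modifiers was seen in both gradients of 1 fraction. NEDD4, an E3 ubiquitin ligase, had 75.1, 30.3 and 57.1 cpm in the transcriptomes and 0.276 cpm at most in a fraction, and UBR1, the ligase that reads N-terminal residues, had 83.5, 45.0 and 47.2 cpm and 12.2 cpm in F2 of gradient B. Of 9 metabolic enzymes and lipid uptake genes, 1 was seen in both gradients of 1 fraction and 2 were in no library. EPHX2, the soluble epoxide hydrolase, had 86.8, 19.4 and 26.9 cpm in the transcriptomes and 0 in all 14 libraries, and CD36, the fatty acid receptor, had 72.4, 40.6 and 43.7 cpm and at most 0.188 cpm. Centrosome and cilium held 6 members, RNA-binding, chromatin and transcription 10, DNA breaks and meiosis 5 and nuclear transport 2. In these groups 3, 2, 1 and 0 members were seen in both gradients of 1 fraction. The last 14 members were not grouped.

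The 4 members of innate immunity, IFI44L, OAS1X, IFIH1 and PARP9, were seen at 1 cpm or more in no library of F1 to F7. IFI44L, an interferon-induced gene, had 95.8, 81.4 and 118 cpm in the transcriptomes, 0 in all 14 fractions and 0.0887 and 0 cpm in the polysome pools. OAS1X, an oligoadenylate synthetase, had 104, 36.6 and 47.0 cpm in the transcriptomes and at most 0.188 cpm in a fraction. Its counts are uncertain, because the near-identical OAS1Y and OAS1Z can share its reads. IFIH1, the sensor of long double-stranded RNA also known as MDA5, had 29.1, 18.3 and 18.6 cpm and 0 in all 14. PARP9, a partner of the ubiquitin ligase DTX3L, had 52.4, 30.8 and 42.8 cpm and at most 0.543 cpm.

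The interferon-stimulated genes of the 8-cell embryo varied widely in their polysome level. In a list of 54 such genes drawn up after the values had been seen, 49 were in the table and 23 reached the members' transcriptome level. Of the 23, 4 were under the polysome limit in both pools, against 1.77% of all genes at this transcriptome level. Another 9 had 5 cpm or more in both pools. ISG15, a ubiquitin-like modifier, had 137, 133 and 175 cpm in the transcriptomes and 496 and 377 cpm in the polysome pools, so its share was higher in polysomes. IFI27 had 832, 317 and 127 cpm in the transcriptomes and 2056 and 1749 cpm in the pools. OAS1Y, the close relative of OAS1X, had 481, 244 and 271 cpm and 66.7 and 57.2 cpm. MX1, an antiviral GTPase, had 273, 123 and 158 cpm and 44.1 and 40.2 cpm. IFI44 and EIF2AK2 were at 0 in pool A and at 4.01 and 5.12 cpm in pool B. IFIT5, DDX58, HERC6 and HERC5 were also at 0 in pool A, with 14, 2.22, 6.92 and 4.47 cpm in pool B. USP18 and GBP4 had 0.222 and 0.177 cpm in pool A and 11.5 and 26.2 cpm in pool B. Like the 4 members, EIF2AK2 and HERC6 reached 1 cpm in no library of F1 to F7.

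**Figure D3:**
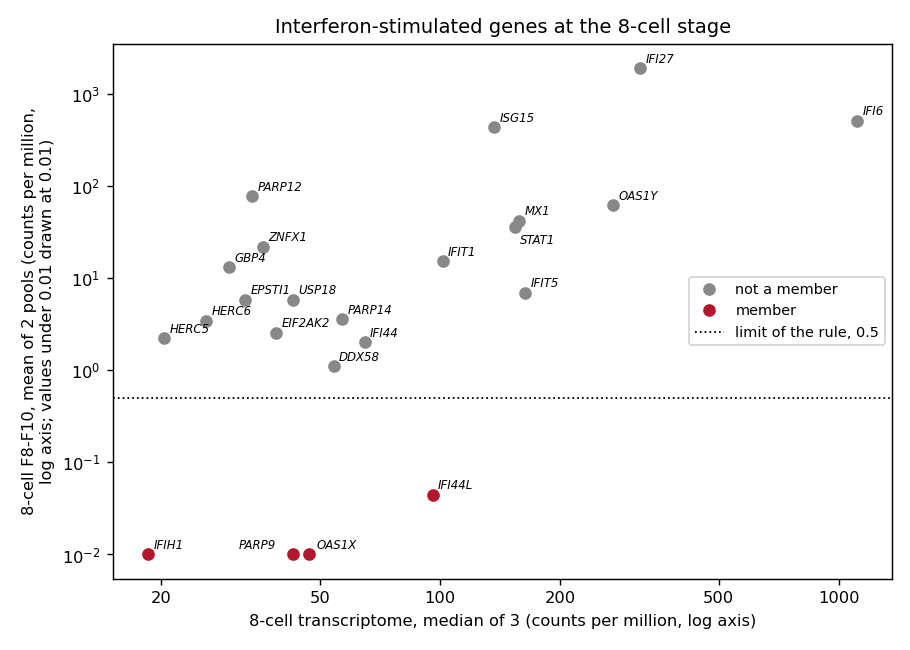
Interferon-stimulated genes that reached the members' transcriptome level, with the median of the 3 8-cell transcriptomes (x) against the mean of the 2 polysome pools (y), both in cpm on log axes. IFI44L, OAS1X, PARP9 and IFIH1 lie under the limit of 0.5 (dotted), whereas ISG15, IFI27 and IFI6 lie above 100 in polysomes. Values under 0.01 are drawn at 0.01.

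Across the 6 stages the members were mixed in their timing. By the median of the transcriptomes, 43 were highest at the 8-cell stage, 36 at an earlier stage and 21 at a later one. In 52 members the median was at least 10 cpm in each of GV, MII and 2-cell transcriptomes. In 13 members the 8-cell median was over 5 times that of any other stage, and in 8 over 10 times. These 8-cell values chose the members and were not tested.

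Of the members, 11 had a median under 5 cpm at every other stage. They were IFI44L, OAS1X, CDH17, KCNIP4, RGN, the coagulation factor gene F5, TMEM17, COL11A1, NCAM1, IFIH1 and PARP8. Of these 11, 7 were in no library of F1 to F7 and 0 were in both gradients of 1 fraction. Of the 36 members highest before the 8-cell stage, 17 were in both gradients of 1 fraction and 2 in no library. Of the 21 highest after it, 8 and 4 were. KCNIP4, a potassium channel partner, had 76.3, 30.9 and 23.8 cpm at the 8-cell stage, at most 1.02 cpm in a transcriptome of another stage and 0 in all polysome pools. NCAM1, the neural cell adhesion molecule, had 111, 18.3 and 21.2 cpm, so that transcriptome A held most of it. CDH17, a cadherin of the intestine, had 84.8, 44.8 and 22.5 cpm. COL11A1, a fibrillar collagen, had 27.1, 9.78 and 21.7 cpm and was at 0 in each GV, MII and 2-cell transcriptome. OAS1X, KCNIP4, COL11A1 and IFIH1 were under the polysome limit at every one of the 6 stages.

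The next question was whether the members were also poor in polysomes at stages that the rule did not use. They were, at each of the 5, and much less completely than at the 8-cell stage. Polysome pools held 894 and 777 cpm of the members in GV oocytes, 520 and 462 cpm in MII oocytes, 530 and 501 cpm in 2-cell embryos, 533 and 615 cpm in morulae and 598 and 603 cpm in blastocysts. The transcriptomes of these stages held between 2062 and 3820 cpm, so the groups do not overlap at any stage. The median member had 13.8 cpm in the transcriptome and 3.37 cpm in polysomes at GV, 18.2 and 2.44 cpm at MII, 17 and 2.70 cpm at 2-cell, 16.2 and 1.84 cpm at morula and 9.57 and 3.04 cpm at blastocyst. Under 0.5 cpm in both polysome pools were 21 members at GV, 20 at MII, 25 at 2-cell, 29 at morula and 20 at blastocyst. Of all 16706 genes, 3806, 4122, 3911, 4913 and 4917 were, in that order of stages. These counts do not set the members apart from all genes taken at any transcriptome level. Among genes that reached the last member's 8-cell level in the stage's transcriptomes, 2 of 41 members were under the limit at GV, against 3 of 5586 genes. It was 2 of 49 against 8 of 4883 at MII, 1 of 47 against 7 of 5617 at 2-cell and 2 of 46 against 23 of 5394 at morula. In blastocysts it was 0 of 30 against 8 of 5430. The gene counts include the members.

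**Figure D4:**
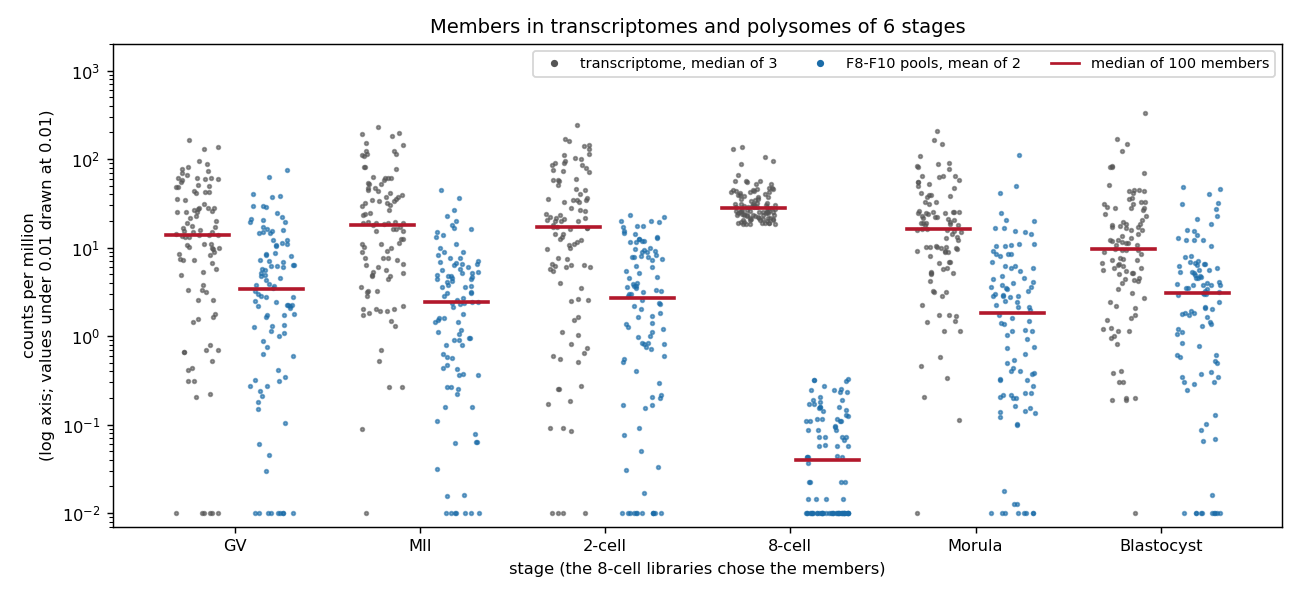
Level of each of the 100 members in cpm (log axis) at 6 stages, as the median of 3 transcriptomes (grey) and the mean of 2 polysome pools (blue). Red lines mark the median over the members, which in polysomes is 0.0399 at the 8-cell stage and between 1.84 and 3.37 at the other stages.

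This was tested gene by gene with edgeR's quasi-likelihood test on 10 polysome pools and 15 transcriptomes without the 8-cell libraries, adjusted over 14286 genes. Of the members, 99 passed the filter and KCNIP4 did not. At GV, 52 members were lower in polysomes and 1 higher, against 19.9% and 25.5% of all genes. At MII it was 73 lower and 1 higher, against 27.7% and 34.1%. At the 2-cell stage 65 were lower and 0 higher, against 25.2% and 31.2%. At the morula stage 68 were lower and 2 higher, against 26.7% and 29.6%. In blastocysts 41 were lower and 0 higher, against 22.2% and 23.4%. For the 2-cell and blastocyst stages DESeq2 and edgeR's likelihood ratio test also called 0 higher, and 71 and 49 members had an unadjusted p under 0.05 in either direction, against 62.6% and 54.3% of all genes. With the replicate letter as a block, 21 members were lower at GV and 17 in blastocysts, against 12.3% and 11.7% of all genes. Without the libraries of letter A at GV the count of lower members was 26, and without those of letter B 24, and in blastocysts it was 25 without letter B. In blastocysts 1 member was higher without transcriptome C. No share of all genes was counted for any fit in this report that leaves out a library. Fewer calls among the members in such a fit therefore cannot be told apart from fewer calls among all genes.

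**Figure D5:**
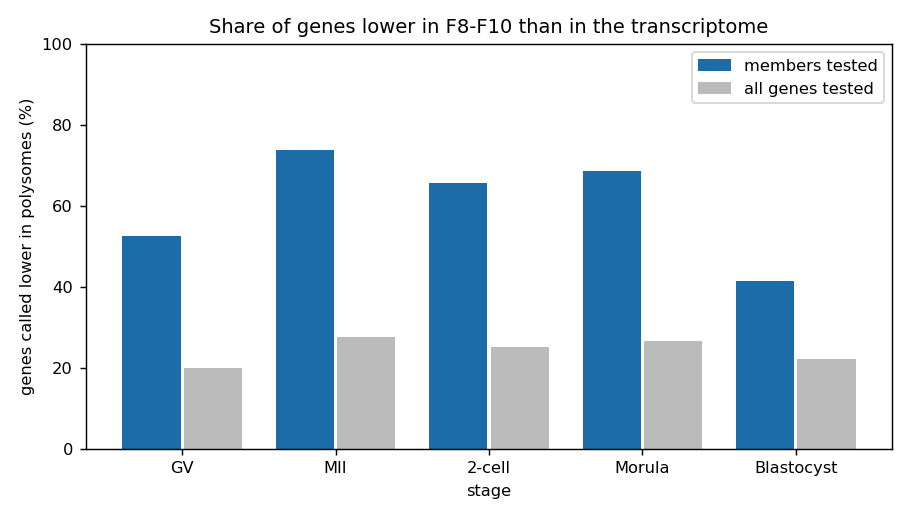
Percent of genes called lower in the polysome pools than in the transcriptomes at each of the 5 stages not used by the rule, for the members tested (blue) and for all genes tested (grey). The members' bars are 52.5, 73.7, 65.7, 68.7 and 41.4 percent from GV to blastocyst, and those of all genes lie between 19.9 and 27.7 percent.

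The members' median log2 difference between polysomes and transcriptome was -2.08 at GV, -3.11 at MII, -2.70 at 2-cell, -2.75 at morula and -1.72 at blastocyst. That of all genes lay between 0 and 0.16. Medians were between -3.12 and -1.55 when members at 0 on 1 side were set to their bounds. Members with 3 counts or fewer on both sides were then left out, 6 at GV and 5 at 2-cell among them. At all 5 stages 16 members were lower, against 6.89% of all genes. Another 25 were lower at 4 stages, 24 at 3 and 18 at 2, against 8.22%, 7.26% and 8.88%. It was 11 at 1 stage and 6 at 0, against 14.8% and 54.0%. The 6 include KCNIP4, which was not tested.

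The 16 members lower at every stage came from many groups. MIER1, a transcriptional corepressor, was the clearest. In MII oocytes it had 55.2, 70.3 and 61.2 cpm in the transcriptomes and 0.0312 and 0.0956 cpm in the polysome pools, a log2 difference of -9.79 (SE 0.89, adjusted p 5.13e-09 by edgeR). Its polysome level stayed at or under 1.85 cpm at every stage, while no transcriptome was under 28.2 cpm. SLC35B3, the Golgi carrier of the sulfate donor, had 35.6, 30.3 and 38.7 cpm in GV transcriptomes and 0.181 and 0.299 cpm in the pools, a log2 difference of -7.15 (SE 1.24, adjusted p 7.07e-05). METTL14 had 131, 112 and 106 cpm in 2-cell transcriptomes and 7.69 and 10.1 cpm in the pools, and its log2 difference there was -3.69 (SE 0.45, adjusted p 5.97e-07). BBS5, a subunit of the complex that carries proteins into cilia, had 13.8, 10.7 and 13.5 cpm in blastocyst transcriptomes and 0.137 and 0 cpm in the pools, with a log2 difference of -7.02 (SE 0.66, adjusted p 4.33e-08). For these genes no pool reached the lowest transcriptome of the stage. The others were EVI5, UBR1, C8H9orf72, CREBRF, DPH5, TTC21B, UBL3, LRRK2, EOGT, NEXN, SHLD3 and the carboxypeptidase gene CPM.

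Some members were at 0 in polysomes of another stage, and for these only a bound on the fold is given, from 3 counts over the group. In morulae SCEL, a protein of the cornified envelope, had 6.08, 10.1 and 10.1 cpm in the transcriptomes and 0 in both pools, at least 197-fold lower (adjusted p 1.12e-05 by edgeR), and EOGT had 4.46, 6.75 and 5.22 cpm and 0, at least 123-fold lower (adjusted p 4.39e-06). CLTRN, collectrin, had 12, 13.2 and 13.8 cpm there and 0.0357 and 0 cpm. NEXN, an actin-binding protein, had 8.56, 1.41 and 7.23 cpm in blastocyst transcriptomes and 0 in both pools, at least 115-fold lower (adjusted p 0.000103). In MII oocytes IFIH1 had 1.24, 8.82 and 2.01 cpm and 0 in both pools, at least 85.1-fold lower (adjusted p 0.00053), and PRKAR2B, a regulatory subunit of protein kinase A, was at least 73.0-fold lower (adjusted p 0.00059). The MII transcriptome B held most of the IFIH1 signal. FLRT3 and CDH17 were at 0 in both GV pools, at least 72-fold and 25.2-fold lower. Neither was called without letter A or without letter B, and CDH17 was not called without transcriptome C either. In 2-cell embryos F5 was at 0 in both pools against 1.52, 1.65 and 0.731 cpm, at least 27.1-fold lower (adjusted p 0.00181), and DOCK10, an exchange factor of small GTPases, was at 0 and 0.1 cpm against 5.50, 7.22 and 5.76 cpm. In blastocysts DOCK10 was at 0 in both pools, at least 24.1-fold lower (adjusted p 0.00164).

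At some stage 4 members were higher in polysomes. VPS13D had 17.9 and 26.6 cpm in GV polysomes and 10.2, 7.40 and 8.38 cpm in the transcriptomes, a log2 difference of 1.35 (SE 0.38, adjusted p 0.00642 by edgeR), and it was not called without letter B (0.207). NCAM1 had 5.39 and 3.38 cpm in MII polysomes and 0.286, 0 and 0.263 cpm in the transcriptomes, a log2 difference of 4.54 (SE 1.54, adjusted p 0.0140), not called without letter A (0.0859) or B (0.0674). PARP9 had 3.68 and 12.3 cpm in morula polysomes and 2.64, 2.22 and 1.81 cpm in the transcriptomes, a log2 difference of 2.22 (SE 0.70, adjusted p 0.01), not called without letter B (0.305). ACTC1 had 0.0714 and 12.2 cpm in morula polysomes and 0.912, 0.193 and 0.454 cpm in the transcriptomes. Its groups overlap, and the call rests on gradient B.

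The difference between polysomes and transcriptome was also compared between successive stages, as an interaction in the same fit. From GV to MII 15 members shifted lower and 0 higher, against 5.34% and 9.76% of all genes, with 30 members and 28.6% of all genes at an unadjusted p under 0.05. From MII to 2-cell 2 shifted higher and 0 lower, against 1.14% and 3.1%, with 16 members and 18.6% of all genes at an unadjusted p under 0.05. From 2-cell to morula 8 shifted higher and 9 lower, against 6.92% and 7.85%. From morula to blastocyst 19 shifted higher and 4 lower, against 9.13% and 8.94%. BBS5 went from a log2 difference of -2.19 at GV to -4.59 at MII (adjusted p 0.0074 by edgeR), and PARP9 from -4.42 at 2-cell to 2.22 at morula (adjusted p 0.00056).

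The counts of lower members by role are a description, to be read beside the 19.9%, 27.7%, 25.2%, 26.7% and 22.2% of all genes that were lower from GV to blastocyst. In that order of stages, membrane traffic had 6, 12, 11, 12 and 7 of 14 members lower, and kinases and signalling 8, 10, 8, 9 and 6 of 14. Adhesion, matrix and cytoskeleton had 4, 6, 5, 5 and 4 of 12, and RNA-binding, chromatin and transcription 6, 6, 6, 6 and 5 of 10. Metabolic enzymes and lipid uptake had 6, 8, 7, 5 and 3 of 9, and centrosome and cilium 4, 5, 5, 5 and 4 of 6. The ubiquitin group had 5, 6, 5, 5 and 2 of 6, and DNA breaks and meiosis 3, 3, 4, 5 and 2 of 5. The small groups were translation with 3, 4, 4, 2 and 2 of 4, innate immunity with 1, 3, 1, 2 and 1 of 4 and nuclear transport with 0, 2, 1, 2 and 1 of 2.

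Members could also be plentiful in polysomes of other stages, for many of them at a lower level than in the transcriptomes. COG6 had 77.5 and 74.7 cpm in GV polysomes and 81.9, 58.9 and 80.6 cpm in the transcriptomes, a log2 difference of 0.03 (SE 0.47, adjusted p 0.995 by edgeR). TARS1 had 62.8 cpm in both GV pools, against 146, 136 and 134 cpm in the transcriptomes. In morula pools it had 150 and 73.8 cpm, against 245, 185 and 209 cpm. CCDC15 and FGD4 had 23.5 and 23.6 cpm and 19.9 and 23.9 cpm in 2-cell pools, and JAK2 had 22.6 and 17 cpm there against 23.6, 22.0 and 20 cpm in the transcriptomes. MTIF2, the mitochondrial initiation factor, had 41.1 and 35.9 cpm in GV pools and 83.2, 97.7 and 88.2 cpm in the transcriptomes. At MII the pools held 30.8 and 15.3 cpm of ZNF705A, against 52.5, 49.4 and 77.9 cpm in the transcriptomes. At morula they held 41.1 and 41.9 cpm of LANCL2, against 90.9, 86.9 and 91.1 cpm. For FAF2 it was 46.2 and 3.40 cpm against 153, 128 and 150 cpm, and for RIDA 26.1 and 14.6 cpm against 80.4, 80.6 and 122 cpm. In blastocyst pools COMMD10 had 34.5 and 62.4 cpm, against 116, 122 and 123 cpm in the transcriptomes. PRKCI had 44.3 and 37.2 cpm against 136, 148 and 159 cpm, and LANCL2 37.5 and 26.3 cpm against 26.6, 30.4 and 22.1 cpm. EPHX2 had 35.1 and 27.2 cpm in blastocyst pools and 32.4, 21.1 and 28.0 cpm in the transcriptomes, and these groups overlap. These genes were thus found in polysomes before or after the stage at which they were missing.

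The 2-cell and morula stages lie on either side of the 8-cell stage, and the change between them does not use its libraries. In polysomes, 27 members were higher in morulae and 20 lower, against 29.5% and 31.8% of all genes. As shares of the members tested these are 27.3% and 20.2%. Without gradient B of the morula stage 22 were higher and 36 lower, so that more members were lower than higher. EPHX2 was at 0 and 0 cpm in 2-cell polysomes and at 10.7 and 19.7 cpm in morula polysomes, at least 316-fold higher (adjusted p 2.28e-07 by edgeR). DST, a cytoskeletal linker, went from 0 and 0.335 cpm to 11 and 22.7 cpm, a log2 change of 7.10 (SE 0.98, adjusted p 2.86e-06). PRKCI went from 4.62 and 3.35 cpm to 27.8 and 70.9 cpm, a log2 change of 4.10 (SE 0.35, adjusted p 6.01e-09), and WEE1, the kinase that holds back mitotic entry, from 0 and 0.335 cpm to 3.75 and 5.21 cpm (5.24, SE 0.78, adjusted p 7.71e-06). IPO8, an importin, was at 0 in 2-cell pools and at 1.18 and 0.330 cpm in morula pools, at least 15.7-fold higher (adjusted p 0.00027). In each of these genes both morula pools were above both 2-cell pools.

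Other members fell in polysome cpm between these stages. EOGT had 13.1 and 16.5 cpm in 2-cell pools and 0 in morula pools, at least 332-fold lower (adjusted p 8.36e-07 by edgeR). SCEL had 6.03 and 0.234 cpm and then 0, at least 70.4-fold lower (adjusted p 7.02e-05). CLTRN went from 4.20 and 10.7 cpm to 0.0357 and 0 cpm, a log2 change of -7.94 (SE 1.30, adjusted p 2.27e-05). COG6 went from 22.3 and 16.7 cpm to 0.428 and 0.203 cpm (-5.38, SE 0.67, adjusted p 8.18e-07). Its transcriptome level fell as well, by 3.53 on the log2 scale (SE 0.47).

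The transcriptomes changed as follows. From GV to MII 18 members were higher and 1 lower, against 7.26% and 14.2% of all genes. Of all calls in this comparison 33.9% were increases, and with edgeR's relative log expression (RLE) factors in place of TMM it was 45.2%. The lower one was LANCL2, from 94.8, 108 and 94.5 cpm to 12.5, 19.3 and 10.6 cpm, a log2 change of -2.54 (SE 0.39, adjusted p 4.40e-05 by edgeR). The count of higher members was 5, 8 and 9 without GV transcriptome A, B or C and 11 and 9 without MII transcriptome B or C. IFI44L and OAS1X were at 0 in all GV transcriptomes. In MII transcriptomes A, B and C they had 0.476, 6.5 and 1.93 cpm and 0.571, 6.94 and 1.31 cpm. The increases were at least 29.8-fold (adjusted p 0.0184) and at least 29.5-fold (adjusted p 0.0255), and neither gene was called without any 1 of the GV transcriptomes, where the adjusted p was between 0.0574 and 0.099. OAS1X was also not called without MII transcriptome B (0.086). IFIH1 had 0.0881, 0 and 0 cpm at GV and 1.24, 8.82 and 2.01 cpm at MII, a log2 change of 6.93 (SE 1.44, adjusted p 0.00254). All 3 were highest in MII transcriptome B.

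From MII to 2-cell 0 members were higher and 11 lower, against 9.66% and 5.82% of all genes, with 21 members and 28.7% of all genes at an unadjusted p under 0.05 and also 0 higher by DESeq2. Increases were 62.4% of all calls, and 50.7% with edgeR's RLE factors. The 11 became 7 and 5 without 2-cell transcriptome B or C. IFIH1 fell to 0 in all 3 transcriptomes, at least 45.2-fold (adjusted p 0.00161 by edgeR), and TMEM17, a ciliary membrane protein, fell to 0 from 0.190, 1.51 and 0.526 cpm, at least 8.35-fold (adjusted p 0.0171). TMEM17 was not called without any 1 of the 2-cell transcriptomes, or without MII transcriptome B. IFI44L fell by 6.61 on the log2 scale (SE 2.09, adjusted p 0.0391) and was not called without any 1 of the 2-cell transcriptomes, without MII transcriptome B or C, or by DESeq2.

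From 2-cell to morula 26 members were higher and 21 lower, against 29.7% and 29.6% of all genes. RANBP6 rose from 4.74, 2.56 and 0.822 cpm to 76.6, 92.0 and 83.2 cpm, a log2 change of 5.01 (SE 0.88, adjusted p 4.87e-05 by edgeR). TMEM17 and IFIH1 rose from 0 to 2.84, 2.41 and 3.18 cpm and to 2.53, 1.06 and 1.47 cpm, at least 31.5-fold and at least 19-fold (adjusted p 0.000832 and 0.00101). COL11A1 rose from 0 to 0.101, 2.41 and 1.13 cpm, at least 13.7-fold (adjusted p 0.00810), and was not called by DESeq2. PARP9 fell from 47.3, 46.4 and 37.4 cpm to 2.64, 2.22 and 1.81 cpm (-4.21, SE 0.70, adjusted p 2.63e-05), SEMA3C, a secreted guidance factor, fell by 3.77 on the log2 scale (SE 0.79, adjusted p 0.000409) and COG6 by 3.53 (SE 0.47, adjusted p 1.60e-06).

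From morula to blastocyst 8 members were higher and 20 lower, against 13.9% and 13.6% of all genes. The 8 became 5 and 4 without blastocyst transcriptome B or C and 4 without morula transcriptome C. ACTC1 rose from 0.912, 0.193 and 0.454 cpm to 18.7, 37.2 and 36.3 cpm, a log2 change of 6.03 (SE 1.52, adjusted p 0.00458 by edgeR). FLRT3 and IPO8 rose by 4.24 (SE 1.43, adjusted p 0.0299) and 2.44 (SE 0.75, adjusted p 0.0180) on the log2 scale, and neither was called without blastocyst transcriptome B or C or morula transcriptome C. RANBP6 fell to 5.51, 9.86 and 4 cpm (-3.54, SE 0.83, adjusted p 0.00258). DOCK10 and MTERF1, a regulator of mitochondrial transcription, fell by 3.89 (SE 0.94, adjusted p 0.00352) and 3.05 (SE 0.53, adjusted p 0.000158).

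SKIL and PRKCI, neighbours in the RefSeq annotation, were the only pair of members that lie next to each other among protein-coding genes.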

How the data were processed

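The authors deposited estimated counts that Salmon had assigned to genes, for 16706 gene symbols in 138 libraries, not normalized, and 11.7% of the values were not whole. The labels name the build UMD 3.1 and the study's methods another build, and which was used could not be settled, so no coordinates are given. No column lacked a sample. Counts per library and per summed fraction pool were divided by the total to give cpm. Counts were rounded and tested with edgeR 4.0.16 (R 4.3.3, limma 3.58.1), quasi-likelihood, TMM factors and filterByExpr, with Benjamini-Hochberg adjustment, a threshold of 0.05 and a fold above 2. The first fit held 36 fraction pools, and the other 25 libraries (10 polysome pools, 15 transcriptomes) without the 8-cell stage. The study's methods used edgeR's likelihood ratio test, which was run as an alternative, as was DESeq2 1.42.0. Tables were handled in Python 3.11.15 with pandas 2.3.3. The fits were tested on simulated data.

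The members and lists were chosen with earlier results of these data known, and the interferon list and the roles were drawn up after values were seen. Genes were named by rank in the 8-cell transcriptomes, mean level in F1 to F7, mean polysome level per stage, largest fold per test among groups without overlap, and closeness to the limits. Other named genes were chosen after their values were seen. Pools of 1 gradient come from the same lysate and are paired by design, with correlations of their deviations between -0.0818 and 0.233. Transcriptome pools came from the batches used for the gradients, but the sources do not tie a transcriptome's letter to a gradient. Levels at 0 are limited by 3 counts per pool, and folds by 3 counts over the group, for counting error only. Of 78 replicate pairs 0 were identical.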

Additional observations from a re-analysis of the deposited data

Results flagged for a closer look

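The log2 difference between polysomes and transcriptome differed between successive stages, by an interaction term in edgeR's quasi-likelihood fit with Benjamini-Hochberg adjustment, in the following named members. From GV to MII it changed by -2.40 for BBS5 (SE 0.59, adjusted p 0.0074), by -5.79 for SCEL (SE 1.31, adjusted p 0.00452) and by -4.66 for DOCK10 (SE 1.35, adjusted p 0.022). From MII to 2-cell it changed by 5.38 for SCEL (SE 1.30, adjusted p 0.0224).

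From 2-cell to morula the change was 6.64 for PARP9 (SE 1.07, adjusted p 0.00056), from -4.42 to 2.22. It was -6.92 for CLTRN (SE 1.45, adjusted p 0.00359), -7.5 for EOGT (SE 1.53, adjusted p 0.00323) and -8.94 for SCEL (SE 1.71, adjusted p 0.00212). EOGT and SCEL were at 0 in both morula pools, so these fitted sizes depend on the prior count.

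From morula to blastocyst the change was 2.44 for MIER1 (SE 0.80, adjusted p 0.0389), -3.94 for PARP9 (SE 1.03, adjusted p 0.0117), 6.93 for CLTRN (SE 1.47, adjusted p 0.00297) and -3.64 for BBS5 (SE 0.76, adjusted p 0.00264). It was 5.52 for EOGT (SE 1.65, adjusted p 0.0254), 8.03 for SCEL (SE 1.71, adjusted p 0.00332) and -6.49 for NEXN (SE 2.03, adjusted p 0.0311). The last 3 rest on a pair of pools at 0, in morulae for EOGT and SCEL and in blastocysts for NEXN.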

How the results depend on the processing

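Named genes in this section are those with the largest fold per test among groups without overlap. Alternatives were compared gene by gene for these alone, and none changed direction. For free RNA against monosomes, DESeq2 gave 8 higher and 9 lower members, against 4.1% and 6.56% of all genes. The likelihood ratio test gave 7 and 10, against 359 and 883 of 14813 genes. With the replicate block it was 1 and 0, against 0.149% and 0.581%. The 8-cell pools alone gave 0 lower, a count not made for all genes. For F6 and F7 against monosomes, DESeq2 gave 3 higher and 13 lower, against 4.11% and 8.72% of all genes. The likelihood ratio test gave 1 and 15, against 407 and 1368 of 14813 genes, and the 8-cell pools alone gave 0 lower. The sources tie no letter of a transcriptome to a gradient, although both came from the same batches at a stage, and the replicate block gave 21 lower and 0 higher at GV, 17 lower at blastocyst and 0 higher at MII and morula. Without F8, chosen after seeing the data, 0 were higher at MII and the list kept 60 members. DESeq2 and the likelihood ratio test gave 2 lower from GV to MII, against 2061 and 2324 of 14286 genes. At 5 cpm 11 members were seen in F1 to F7, and counting any library gave 80 and both gradients in any fraction 54, both chosen after seeing the data. Leaving out 1 replicate gave 0 to 1 lower for free RNA, 0 to 2 higher and 0 to 2 lower for F6 and F7, 24 to 38 lower and 0 to 1 higher at GV, 0 to 1 higher at MII, 0 to 3 higher at morula, and 25 to 36 lower and 0 to 1 higher at blastocyst. It gave 5 to 21 higher from GV to MII, 5 to 14 lower from MII to 2-cell, 4 to 8 higher from morula to blastocyst, 16 to 36 lower in polysomes from 2-cell to morula and 4 to 91 members of the list. With 1 gradient alone, 60 and 74 members were seen, but detection then needs only that gradient, so these do not compare with the 32. Among named genes, 448 values under an alternative kept their call and 48 lost it, 7 of these under the replicate block and 2 with DESeq2. RLE factors in place of TMM in edgeR moved the median of all genes from -0.05 to -0.38 in polysomes from 2-cell to morula, and by over 0.1 in 3 other comparisons. The cause of these changes was not tested. With 2 pools per stage, levels under 0.133 and 0.0865 cpm could not be told from 0 in the 8-cell pools.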
